A study of Mus musculus with 2 samples.

Results

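AP-1 is a family of paired transcription factors built from Fos and Jun proteins. Many of its genes are immediate early genes, which are transcribed within minutes of a signal without new protein synthesis. Myb occupancy in mouse bone marrow progenitors was described around 10 AP-1 and immediate early genes, 4 encoding Fos proteins (Fos, Fosb, Fosl1 and Fosl2), 3 encoding Jun proteins (Jun, Junb and Jund), and Atf3, Egr1 and Ier2. A Myb peak was taken when its summit, the position of highest signal, lay in the body of 1 of these genes or within 30 kb of it in the GENCODE vM21 annotation of mm10. This rule took 67 of the 25793 peaks of the list. Within the list it used position alone, so fold enrichment, width, read number and sequence are measures that the rule did not use. Every peak of the list had already been called over a control, and the genes were chosen with earlier results of these data known.

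ChIP-Seq was performed on WT Lin- mouse bone marrow, that is, cells from which mature blood lineages had been depleted, leaving a fraction rich in stem and progenitor cells, with a purity above 80%. There were 2 samples with 1 library each, a precipitate with an antibody against Myb and a control precipitate with rabbit IgG, the latter used only as the background against which peaks were called. Each precipitation took 1 μg of chromatin, and the number and age of the mice that gave the cells are not given for this experiment. The methods give an age at the poly(I:C) injections of the study and state that both sexes were used. The methods put every mouse of the study on a C57BL/6 background. In the methods of the study, WT is used for Ep300 fl/fl mice without Cre that received poly(I:C), and whether the WT mice of this experiment were such mice is not given. The study used this experiment to find genes bound by Myb and compare them with genes that change when p300 is lost from Tet2-null cells. With 1 library per antibody there is no replicate check, so values are described beside the same value over all peaks or all 21938 protein-coding genes, with no p-value, and intervals cover counting error only.

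Fos proteins pair only with other leucine zipper proteins, mainly Jun proteins, whereas Jun proteins can also pair with each other. The pairs bind the AP-1 site, and some pairs that include Atf proteins bind the longer cAMP response element (CRE). The promoters of Fos and Egr1 are textbook targets of serum response factor (Srf), which binds the CArG box together with ETS-domain partners that are phosphorylated by MAP kinases. In blood cells AP-1 and Egr1 are known for roles in stress responses and in monocyte and macrophage differentiation, and Myb is a factor that maintains progenitors.

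Sequences from the peaks are shown first, as examples of the motifs that were counted. In those after the first 3, the marked motifs lie more than 50 bp from the summit and are not in the counts at summits. Capitals mark only the motif named for that sequence, and other motifs present are not marked. Each motif was searched on both strands, with N standing for a position of 2 allowed bases. The Myb motif was NAACNG (C or T at the first N, G or T at the second), the RUNX motif TGNGGT (T or C at the N), the AP-1 motif TGANTCA (C or G at the N), the CRE had the letters TGACGTCA, and the CArG box is the site of Srf. The first 3 sequences are the bases within 50 bp of the summits of the strongest peaks of Fos and Fosb that hold a motif. The next 3 are stretches of promoter peaks with a CArG box, then follows the stretch of a peak upstream of Junb that holds 3 AP-1 motifs, and the last 2 hold a CRE. They are written 5′ to 3′ on the strand of the gene and come from the GRCm38 reference genome.
Fos, summit 18290 bp upstream of the gene, RUNX motif, chr12:85455550-85455650, plus strand: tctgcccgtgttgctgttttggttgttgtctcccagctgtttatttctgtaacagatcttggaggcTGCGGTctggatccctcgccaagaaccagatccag
Fos, summit 5047 bp upstream of the gene, Myb motif, chr12:85468793-85468893, plus strand: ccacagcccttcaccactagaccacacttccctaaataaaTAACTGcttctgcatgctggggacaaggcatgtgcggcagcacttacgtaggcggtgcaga
Fosb, summit 114 bp past the end of the gene, Myb motif, chr7:19302532-19302632, minus strand: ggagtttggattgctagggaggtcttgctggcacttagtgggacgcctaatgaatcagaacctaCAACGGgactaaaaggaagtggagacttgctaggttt
Fos promoter, CArG box, chr12:85473560-85473859, plus strand: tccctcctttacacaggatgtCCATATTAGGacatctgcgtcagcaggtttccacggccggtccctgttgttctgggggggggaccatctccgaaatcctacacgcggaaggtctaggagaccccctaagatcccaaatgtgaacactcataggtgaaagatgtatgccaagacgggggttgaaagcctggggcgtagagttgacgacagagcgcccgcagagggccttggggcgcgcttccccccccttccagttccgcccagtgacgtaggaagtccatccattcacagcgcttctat
Fosb promoter, CArG box, chr7:19310268-19310357, minus strand: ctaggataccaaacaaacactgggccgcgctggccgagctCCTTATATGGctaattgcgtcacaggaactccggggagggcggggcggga
Junb promoter, CArG box, chr8:84976584-84976673, minus strand: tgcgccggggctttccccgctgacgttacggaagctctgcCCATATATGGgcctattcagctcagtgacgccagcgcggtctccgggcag
Junb, peak with its summit 7659 bp upstream of the gene, AP-1 motifs, chr8:84985647-84985767, minus strand: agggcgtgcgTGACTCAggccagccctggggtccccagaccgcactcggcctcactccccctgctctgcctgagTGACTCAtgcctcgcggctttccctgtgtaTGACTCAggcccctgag
Jund promoter, CRE, chr8:70698695-70698782, plus strand: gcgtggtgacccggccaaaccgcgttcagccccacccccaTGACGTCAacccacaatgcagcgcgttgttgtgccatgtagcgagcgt
Ier2 promoter, CRE, chr8:84662853-84662952, minus strand: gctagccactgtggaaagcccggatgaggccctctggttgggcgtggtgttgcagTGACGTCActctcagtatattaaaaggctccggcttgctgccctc

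All 10 genes had Myb peaks. Each had at least 1 peak in its window, which was true of 62.8% of protein-coding genes, and each had at least 1 promoter peak, meaning a summit within 3 kb of an annotated start of the gene, against 39.9% of protein-coding genes. For 10 of 10 genes the exact (Clopper-Pearson) 95% interval of the share begins at 69.2%. The number of peaks per window ranged from 2 at Jun to 11 at Fosb with a median of 7, and the median over protein-coding genes was 1 and the third quartile 4. Fosb (11), Egr1 (10), Junb (9), Fos (8) and Ier2 (8) made 5 of 10 genes with at least 8 peaks, a number reached by 6.7% of protein-coding genes. The limit of 8 was chosen after the values were seen. Windows also take in neighbors. The gene itself was the nearest annotated start for all peaks of Egr1 and Fos, but for 4 of 11 at Fosb, 2 of 9 at Junb and 2 of 8 at Ier2. Jund had 6 peaks, Fosl1 had 5, and Fosl2 and Atf3 had 4 each. Most of these genes are short, so their windows are near the smallest possible, and per 100 kb of window the median was 11.2 peaks against 1.38 over protein-coding genes.

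**Figure D1:**
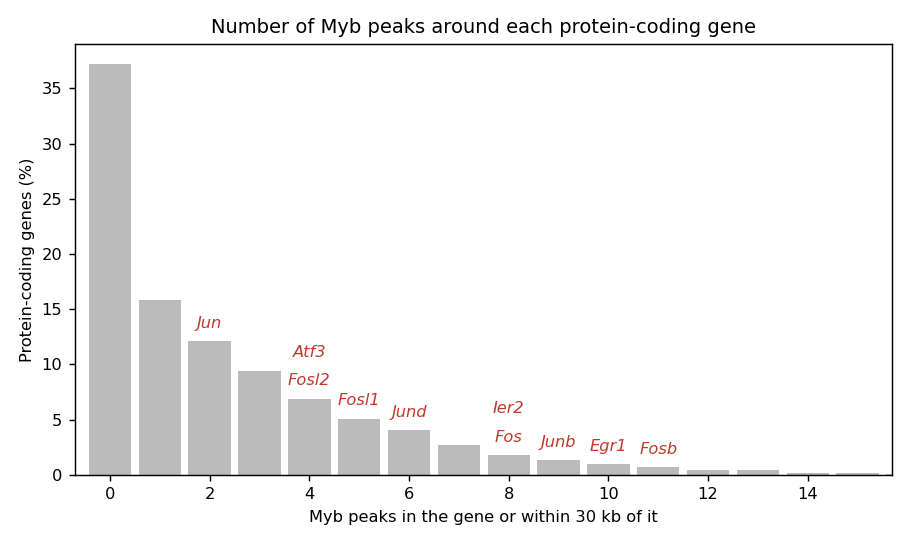
Bars give the percent of 21938 protein-coding genes (y axis) with each number of Myb peaks in the gene or within 30 kb of it (x axis, shown to 15), and red names place the 10 genes. Most genes stand at the left, and 5 of the 10 genes stand at 8 peaks or more, a limit chosen after the values were seen.

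Fold enrichment is the Myb pileup at the summit over the local IgG background, as given in the list. Over all 67 peaks the median was 4.47 (95% interval of the median by order statistics, 4.18 to 4.97) against 4.51 over all peaks. The study's methods state a limit of q < 0.05, which part of the list does not meet, and among the peaks that meet it the medians were 4.81 and 4.69. The spread was wider at the top. Of the 67 peaks, 22 (32.8%) lay at or above the third quartile of the list, 5.95, where 25.1% of all peaks lie, and 10 (14.9%) lay in the highest 5%, which begins at 9.68. The 28 peaks around the genes of Fos proteins had a median of 4.49, the 17 around those of Jun proteins 4.14, and the 22 around Atf3, Egr1 and Ier2 4.57. The number of reads over a summit was recovered from the fold enrichment and the p-value, and had a median of 20 (quartiles 16 and 36) against 18 over the list.

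**Figure D2:**
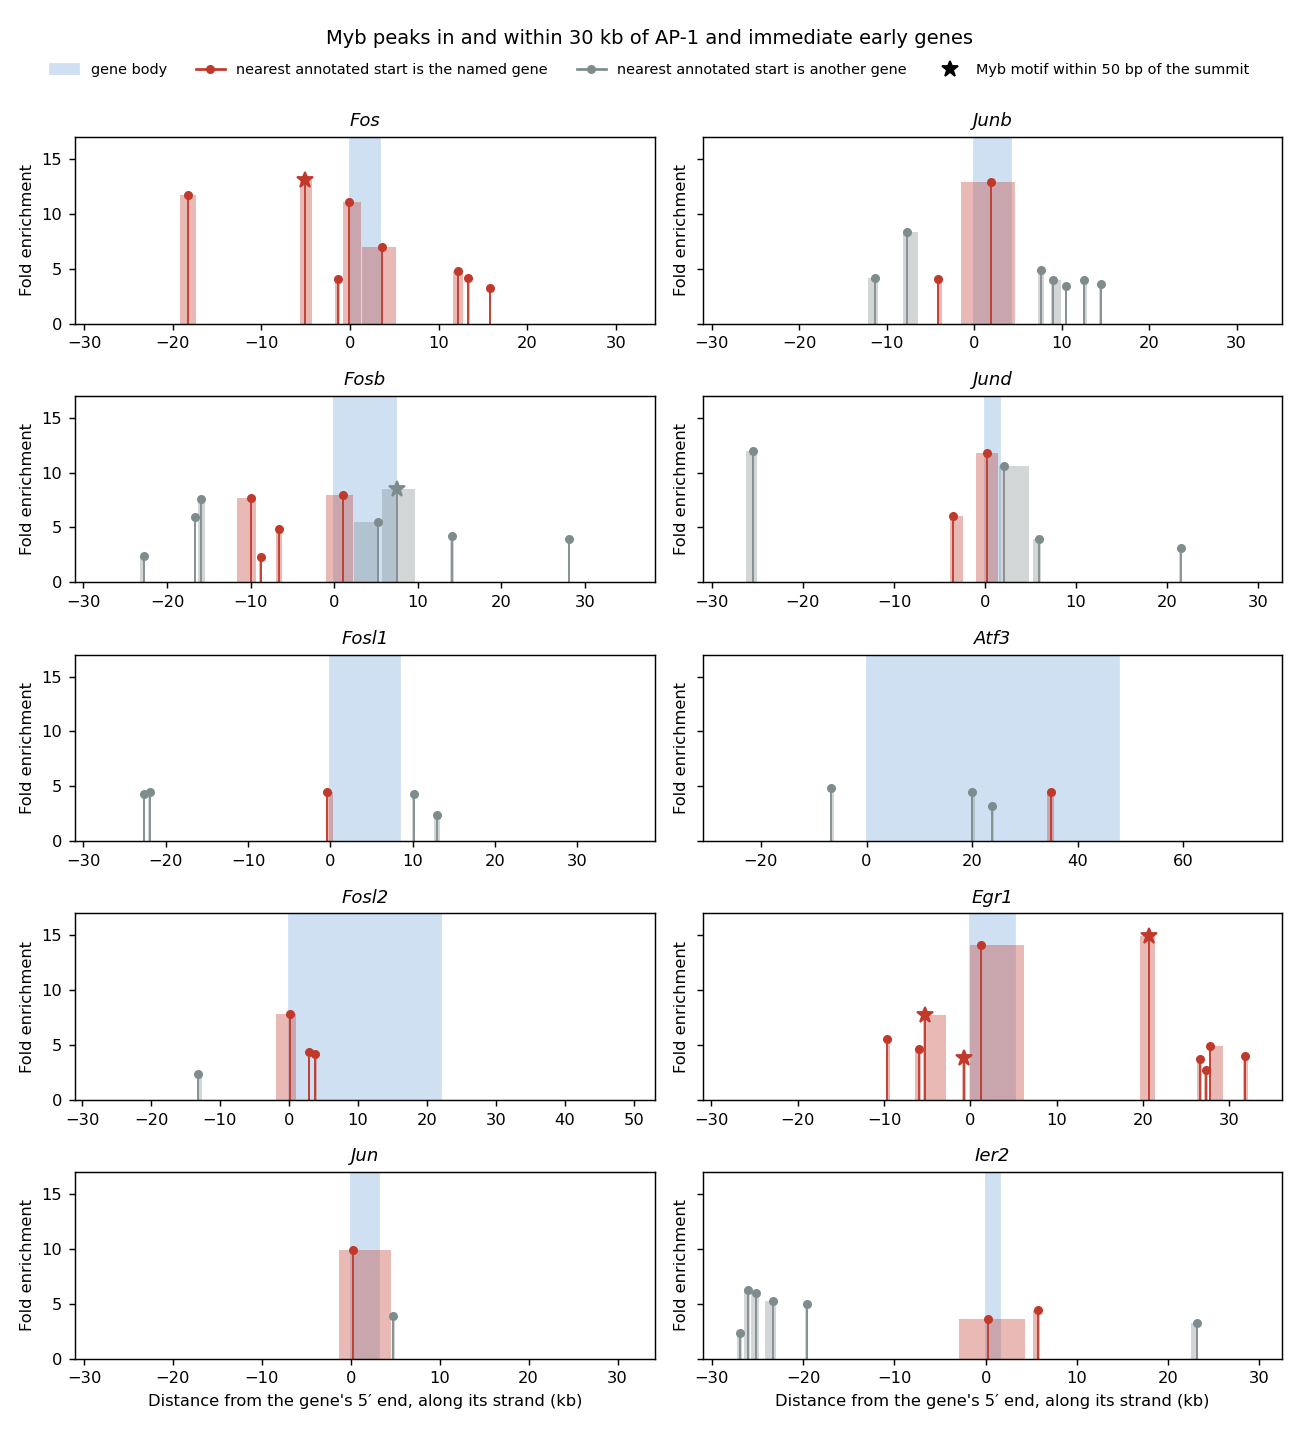
Each panel shows 1 gene, with distance from its 5′ end along its strand (kb) on the x axis, fold enrichment over IgG on the y axis, the gene body in blue, and each of the 67 peaks as a bar as wide as the peak with a point at its summit. The bodies of Jun, Junb, Egr1 and Ier2 lie wholly under peaks, and the highest points are those 19330 bp downstream of the nearest start of Egr1 (14.95) and at its promoter (14.1), then that 5047 bp upstream of Fos (13.04).

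Among the Fos genes, Fos itself, the founding member of the family, had the highest fold enrichment. Fos lies on the plus strand of chromosome 12 at 85473890 to 85477273 (ENSMUSG00000021250.13). Its highest peak was not at the promoter but 5047 bp upstream, with a 13.04-fold enrichment from 53 reads (exact Poisson 95% interval 39.7 to 69.3). The summit of that peak lies 7 bp from the middle of the Myb motif printed above. A second upstream peak, 18290 bp away, reached 11.8-fold with 53 reads. Each of these upstream peaks held a RUNX motif near its summit, though only that of the second is marked above. Both summits are intergenic, and no other protein-coding gene starts in the window of Fos.

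The promoter peak of Fos, with its summit 125 bp before a start site, was 11.1-fold enriched with 58 reads (44.0 to 74.98) and 2096 bp wide. Another 2 peaks were counted as promoter peaks. One, 1384 bp upstream, had a 4.01-fold enrichment over an IgG background of 5 reads. The other, 3777 bp wide and 6.97-fold enriched, had its summit 229 bp past the end of the gene. Together the peaks covered 96.4% of the Fos gene. The remaining 3 peaks lay 8788 to 12404 bp past the end of the gene and were 3.23- to 4.81-fold enriched. The 3 peaks of Fos in the highest 5% of the list were thus at the promoter and upstream of it.

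Fosb, which encodes the Fos protein closest to Fos, had the most peaks of the 10 genes and none in the highest 5% of fold enrichment. It lies on the minus strand of chromosome 7 at 19302696 to 19310051 (ENSMUSG00000003545.3). The highest, 8.52-fold with 43 reads (31.1 to 57.9) and 3941 bp wide, had its summit 114 bp past the 3′ end, with a Myb and an ETS motif within 50 bp. The start nearest to that summit was not one of Fosb but that of the noncoding gene Gm26802, 1812 bp away. The promoter peak, 635 bp after a start, was 7.94-fold enriched, 3162 bp wide and in an exon. Another wide peak between them, 5.54-fold enriched and also nearest to the start of Gm26802, joined them nearly end to end. In all, 93.0% of the gene was covered. Upstream, peaks of 7.68-fold at 9948 bp, 7.56-fold at 15961 bp and 5.98-fold at 16641 bp also lay above the third quartile of the list. The latter 2 lay in introns of the noncoding gene Gm44698. Among the other peaks, 2 of 2.35-fold had a q-value above 0.05.

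Fosl1 and Fosl2 encode Fra proteins, Fos relatives that lack the strong transactivation domain of Fos. Fosl2, on the plus strand of chromosome 5 at 32135801 to 32157842 (ENSMUSG00000029135.10), had a promoter peak of 7.85-fold with 29 reads (19.4 to 41.6), 2823 bp wide. A peak of 4.39-fold lay 2552 bp after a start, and only 8.23% of this longer gene was covered. Fosl1, on the plus strand of chromosome 19 at 5447547 to 5455946 (ENSMUSG00000024912.6), had the promoter peak with the fewest reads, 14 (7.65 to 23.5), at 4.46-fold, 451 bp before the start. The highest of its 5 peaks was 4.51-fold and lay in an intron of AI837181, 451 bp from the start of that gene. The 4 peaks of Fosl1 other than the promoter peak were 43, 66, 149 and 451 bp from the start of a neighbor, in a window where 7 other protein-coding genes start.

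The 3 Jun genes each had a promoter peak in the highest 5% of fold enrichment. Jun, on the minus strand of chromosome 4 at 95049034 to 95052222 (ENSMUSG00000052684.4), encodes the main activating Jun protein. It had 1 peak of 9.91-fold and 5876 bp that held the whole gene, with its summit in the 5′ UTR, 213 bp after the start. The 76 reads over that summit (59.9 to 95.1) were the most of the 67 peaks, over an IgG background of 5 reads. The only other peak of Jun was 3.92-fold, and no other protein-coding gene starts in its window. Jun thus had the fewest peaks and the largest number of reads at a summit.

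Junb, which encodes a Jun protein with weaker activating ability than Jun, lies on the minus strand of chromosome 8 at 84974484 to 84978718 (ENSMUSG00000052837.6). Its promoter peak was 12.9-fold enriched with 57 reads (43.2 to 73.9), 6204 bp wide, and also held the whole gene. The summit was 265 bp before the nearest start and 1911 bp inside the longest transcript. A peak of 8.31-fold lay 7659 bp upstream, nearer to the start of Hook2 than to Junb, and held 4 AP-1 motifs, 3 of them printed above. The other 7 peaks of Junb were 3.39- to 4.87-fold enriched, and 5 other protein-coding genes start in the window.

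Jund, the Jun gene that is transcribed in most cells without a signal, lies on the plus strand of chromosome 8 at 70698949 to 70700616 (ENSMUSG00000071076.6). The peak 182 bp after its start, in the coding exon, was 11.8-fold enriched with 65 reads (50.2 to 82.8) and 2508 bp wide. A second peak of 10.6-fold and 3281 bp followed 2107 bp after the start, with its summit 440 bp past the end of the gene. It lay nearer to the start of the antisense gene Gm11175. Another peak of 6.02-fold lay 3464 bp upstream. The highest value in the window, 12.0-fold with 42 reads, lay 22 bp from the start of Lsm4, which encodes an RNA-binding protein, and 25495 bp from Jund. In this window 4 other protein-coding genes start.

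Egr1 encodes a zinc finger factor and had the promoter peak of the highest fold enrichment of the 10. It lies on the plus strand of chromosome 18 at 34859823 to 34864984 (ENSMUSG00000038418.7). The promoter peak was 14.1-fold enriched with 72 reads (56.3 to 90.7), 6276 bp wide, and covered the whole gene, with its summit 134 bp before the nearest start. A second strong peak, 14.95-fold with 57 reads (43.2 to 73.9), lay 15553 bp past the end of the gene. Its summit was inside a GATA motif and 19 bp from the middle of a Myb motif. Its fold enrichment was above that of 99.1% of all peaks. A weaker one, 7.72-fold and 2633 bp wide, lay 5265 bp upstream and also had a Myb motif near its summit, as had the weak promoter-flanking peak 737 bp upstream (3.83-fold). Egr1 was the nearest start for all 10 of its peaks.

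The promoter peaks of Atf3 and Ier2, like that of Fosl1, had fold enrichments below the list median. Atf3 encodes a stress-induced leucine zipper protein that pairs with Jun proteins, and lies on the minus strand of chromosome 1 at 191170296 to 191218039 (ENSMUSG00000026628.13). Its promoter peak was 4.45-fold enriched with 18 reads (10.7 to 28.4), 33 bp before a start inside the gene. Its highest peak, 4.87-fold, lay 6689 bp upstream, 254 bp from the start of the noncoding gene D730003I15Rik. Ier2, on the minus strand of chromosome 8 at 84661331 to 84662852 (ENSMUSG00000053560.4), encodes a nuclear protein. Its promoter peak was the widest of the 67 at 7192 bp and had 50 reads (37.1 to 65.9), but a fold enrichment of 3.59. The IgG background there was 10 reads, the highest of the 67 peaks. The highest peaks in the window of Ier2, 6.23- and 5.98-fold, lay 15 bp from the start of Trmt1 and 148 bp from that of Nacc1.

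In reads at the depth of the IgG library, the strongest promoter peaks ran from 58.5 (46.1 to 73.2) at Jun, 55.4 (43.3 to 69.8) at Egr1 and 50.01 (38.6 to 63.7) at Jund to 13.9 (8.21 to 21.9) at Atf3 and 10.8 (5.89 to 18.1) at Fosl1. Between them stood Fos with 44.6, Junb with 43.9, Ier2 with 38.5, Fosb with 30.8 and Fosl2 with 22.3. No 2 neighbors in this order differed beyond their counting intervals. The intervals of Jun, Egr1, Jund, Fos and Junb lay wholly above those of Fosl2, Atf3 and Fosl1. The IgG background was 1.64 to 5 reads at 9 of the genes and 10 at Ier2, so Ier2 stood sixth in reads and last in fold enrichment. Over the 67 peaks, 8 (11.9%) had an IgG background of at least 5 reads, against 4.95% of all peaks. Its part in the values of these 8 peaks was not tested.

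**Figure D3:**
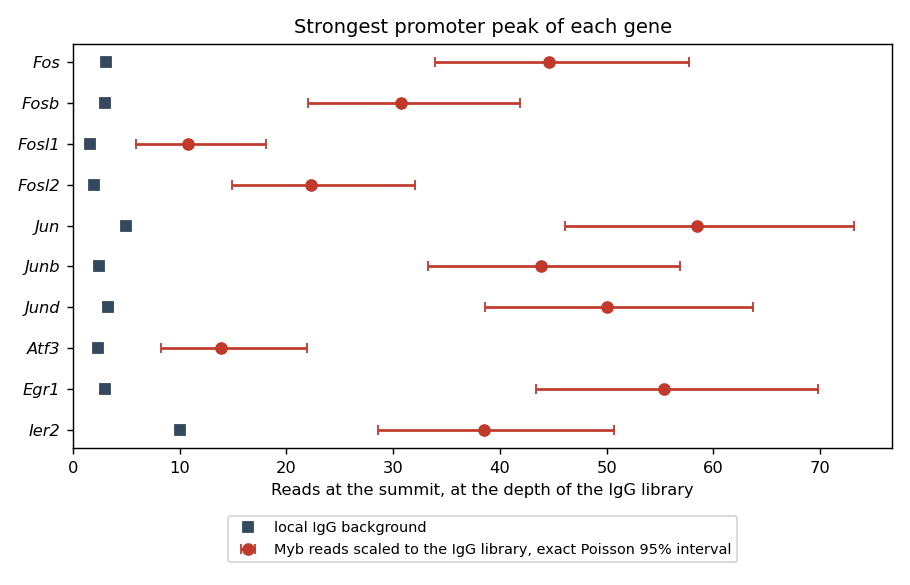
Red points give the Myb reads at the summit of each gene's strongest promoter peak, scaled to the depth of the IgG library (x axis, reads), with exact Poisson 95% intervals, and dark squares give the local IgG background. Every interval lies above its own background, which is no separate support because the peaks were called over that background. Ier2 has the highest background, 10 reads.

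The same promoter peaks in fold enrichment had a median of 8.93, against 5.25 over the protein-coding genes with a promoter peak. Fos, Jun, Junb, Jund and Egr1 made 5 of 10 genes with a promoter peak in the highest 5% of the list, where 3.22% of all protein-coding genes have one. Of the 52 peaks more than 3 kb from a start of the 10 genes, the 25 upstream had a median of 5.30-fold, the 23 past the end of the gene 3.98, and the 4 inside a gene 4.32. Many of them lay at the start of another gene. Beyond 3 kb from every annotated start, the 15 upstream peaks had a median of 5.98-fold and the 10 past the end of the gene 4.19.

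Peaks around the 10 genes were often wide. The median width was 760 bp against 577 bp, and 14 of 67 peaks (20.9%, exact 95% interval 11.9 to 32.6%) were wider than 2 kb, against 3.36% of all peaks. Of these 14, 10 were among the 15 promoter peaks, whose median width was 2823 bp. At Fos and Jund these include a wide peak with its summit past the end of the short gene. Over the list, peaks within 3 kb of any annotated start had a median width of 620 bp, and 4.83% were wider than 2 kb. That is a broader rule, which 40 of the 67 peaks meet, so the 2 sets are not alike. The wide peaks stood at Fosb (4), Fos, Jund and Egr1 (2 each), and Fosl2, Jun, Junb and Ier2 (1 each), and at neither Fosl1 nor Atf3. A promoter peak wider than 2 kb was present at 8 of the 10 genes, against 3.41% of protein-coding genes. Peaks wider than 5 kb stood at Jun, Junb, Egr1 and Ier2, 4 of 67 against 0.151% of all peaks (39 peaks). At those 4 genes the whole gene body lay under peaks, which held for 0.242% of protein-coding genes. All such genes were at most 10 kb long, and among genes of that length, to which 8 of the 10 belong, the share was 0.682%. The wide peaks around the 10 genes had a median of 8.23-fold, and all wide peaks of the list one of 8.42.

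**Figure D4:**
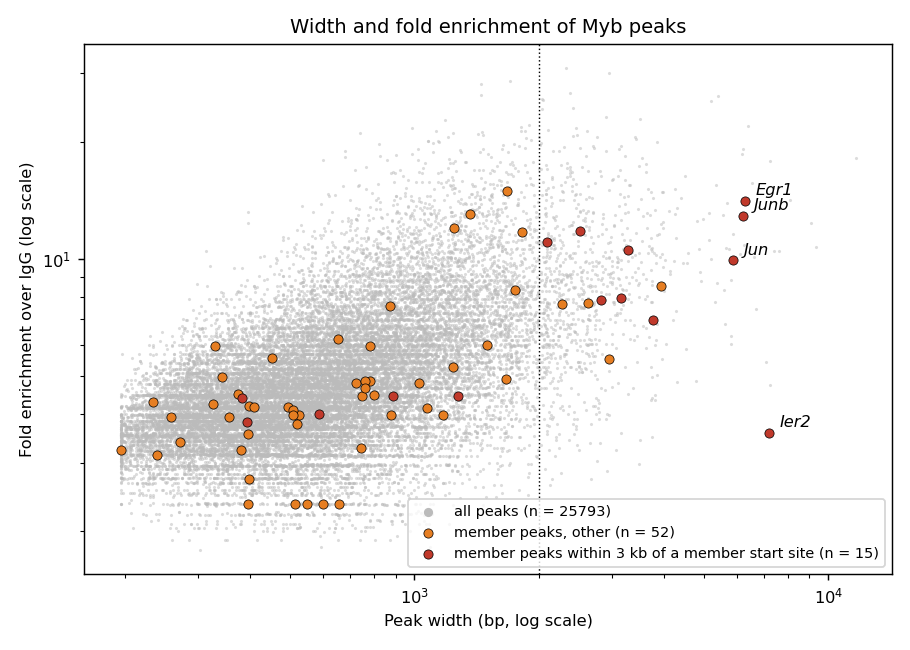
Each point is a Myb peak, with its width (x axis, bp, log scale) and fold enrichment over IgG (y axis, log scale), in gray for all 25793 peaks, red for the 15 promoter peaks and orange for the other 52 peaks around the 10 genes. The dotted line marks 2 kb, and the 4 named peaks wider than 5 kb lie at the right edge, with Ier2 far below the other 3 in fold enrichment.

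The Myb motif itself was counted at the summits. Within 50 bp of the summit, on either strand, it was present at 5 of 67 peaks (7.46%, 2.47 to 16.6%) against 16.7% of all peaks, a value just above the upper bound. Under 9 of 10 alternatives the interval held the share of the list. The share around the 10 genes stayed the lower one, except with the motif counted anywhere in the peak. With peaks of a q-value of at most 0.05 the share was 8.20% (2.72 to 18.1%) against 16.9%, and within 100 bp of the summit 20.9% (11.9 to 32.6%) against 30.0%. The 5 were the Fos peak 5047 bp upstream, the Fosb peak past its 3′ end and 3 peaks of Egr1, and none of the 17 peaks around Jun genes was among them. Of the 15 promoter peaks, 1 had the motif near its summit. Counted anywhere in the peak, the motif was present in 41 of 67 (61.2%, 48.5 to 72.9%) against 58.6% of all peaks, and in 13 of the 14 wide peaks, against 95.8% of all wide peaks. Per kb of peak sequence there were 1.11 Myb motifs around the 10 genes and 1.48 over the list.

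The motifs of other factors near the summits were counted the same way. The added motifs are ETS, spelled NGGAAGT (A or C at the N), GATA, spelled NGATAA (A or T at the N), C/EBP, spelled TTGCNNAA (any base at each N), and EGR, spelled GCGNGGGCG (G or T at the N). No motif holds another. A RUNX motif was present at 10 of 67 summits (14.9%) against 12.2% of all, an ETS motif at 6 (8.96%) against 6.4%, a GATA motif at 5 (7.46%) against 13.8% and a C/EBP motif at 2 (2.99%) against 6.16%. An AP-1 motif was present at 0 of 67, which allows a share of up to 4.48% by a limit of 3 counts and 5.36% by the exact interval, against 1.93% of all summits. A CRE was also at 0 of 67 against 0.244%, an EGR motif at 0 of 67 against 0.236%, and a CArG box at 1 of 67, that of the Egr1 promoter, against 0.434%. For each of these other motifs the exact interval of the share around the 10 genes held the share of the list, so no difference was detectable with 67 peaks.

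Elements known from these promoters were also counted away from the summits. Within 500 bp upstream of an annotated start, a CArG box was present at Fos, Fosb, Junb and Egr1, 4 of 10 genes, against 6.81% of protein-coding genes. It began 309 bp before the start of Fos and 91 bp before the inner start of Junb. Its middle lay 1348 bp from the summit of the promoter peak of Fosb and 178 bp from that of Junb. The promoter peak of Egr1 held 5 CArG boxes. A CRE was present at Jund and Ier2, 2 of 10 against 3.83%, an AP-1 motif at Fosl1 and Fosl2, 2 of 10 against 18.6%, and an EGR motif at Fosb and Jund, 2 of 10 against 8.34%. A Myb motif was present upstream of 6 of 10 (Fos, Fosl1, Fosl2, Jun, Egr1 and Ier2), against 66.9% of protein-coding genes. Per kb of peak, CArG boxes numbered 0.129 around the 10 genes and 0.0550 over the list, EGR motifs 0.107 and 0.0457, and AP-1 motifs 0.247 and 0.187. Around the 10 genes these densities rest on 12, 10 and 23 sites and carry no interval. Of the 12 CArG boxes, 5 are those of the Egr1 promoter peak. The match of a motif describes the sequence and is not a measured binding site.

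The window also took in neighboring genes. A start of 1 of the 10 genes was the nearest annotated start for 34 of 67 peaks (50.7%), among them all peaks of Fos and Egr1, 3 of 4 at Fosl2 and 4 of 11 at Fosb, but 2 of 9 at Junb, 2 of 8 at Ier2 and 1 of 5 at Fosl1. Of the other 33 peaks, 26 lay within 3 kb of the start of the nearer gene. The 34 peaks had a median of 4.81-fold with 11 wider than 2 kb, and the 33 a median of 4.25-fold with 3. Within 3 kb of any annotated start lay 40 of 67 peaks (59.7%), against 57.6% of the list. The bases around the summits were 54.5% GC in the median, against 48.5%. The weakest peaks, with a q-value above 0.05, were 6 of 67 (8.96%) against 7.24% of all, at Fosb (2), Fosl1, Fosl2, Jund and Ier2. At the edge of the window, the last summits taken in lay 26934, 26610 and 25999 bp from a gene (2.35-, 3.99- and 6.23-fold), and the first left out lay 30046, 30704 and 33013 bp from Fosb (3.14-, 3.11- and 4.91-fold).

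The wider pathway was counted over lists of 68 genes that act with or beside the 10, chosen with earlier results of these data known. A promoter peak was present at 57 of 68 (83.8%, 72.9 to 91.6%), against 39.9% of protein-coding genes, and 9 (13.2%) had one in the highest 5% of fold enrichment, against 3.22%. Among the genes of leucine zipper partners, 15 of 20 had a promoter peak, with all peaks kept. The highest values were at Nfe2, the erythroid and megakaryocytic partner of small Maf proteins (16.99-fold, 94 reads), and Atf5 (11.9-fold). Of the upstream factors it was 5 of 6. Srf (5.72-fold), its ETS-domain partners Elk3 (4.22) and Elk4 (7.43), and the CRE-binding factors Creb1 (5.64) and Crem (7.26) had a promoter peak and Elk1 had none. Among MAP kinase pathway genes it was 10 of 12, without Mapk3 and Rps6ka3, and Map3k1, a kinase upstream of Jun N-terminal kinase, stood highest (11.8).

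Other immediate early genes had promoter peaks at 21 of 22, all but Nr4a1, against 39.9% of protein-coding genes. The highest were Nr4a3, an orphan nuclear receptor (12.2-fold), Mcl1, a survival factor of the Bcl2 family (11.1), Zfp36, which destabilizes mRNA (10.7), Klf6 (9.99) and Nfkbia, the inhibitor of NF-kB (9.87). In 7 of the 22 a promoter peak was wider than 2 kb, against 3.41% of protein-coding genes. The bodies of Ier3, Ier5 and Zfp36 lay wholly under peaks, against 0.242% of protein-coding genes and 0.682% of those up to 10 kb long. Feedback phosphatases and Egr corepressors had promoter peaks at 6 of 8, without Dusp4 and Nab1, against the same 39.9%. The highest was Dusp1, which inactivates MAP kinases (13.9-fold, widest promoter peak 5706 bp). The genes named for lacking a peak and those with a covered body were picked after their values were seen. Among cell type markers, 5 of 6 progenitor genes had a promoter peak (not Cd34), against 39.9% of protein-coding genes. Of genes of the depleted lineages 0 of 4 had one, and of genes of other tissues 0 of 6. In the window of 30 kb, 6 of 6, 2 of 4 and 1 of 6 had a peak, against 62.8%. A Myb peak is not a measure of expression, so these few genes do not test the label.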

How the data were processed

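Per the labels and the study's methods, reads were trimmed (Cutadapt 1.15), mapped to mm10 (BWA 0.7.13) and freed of duplicates (Picard). The authors then called narrow peaks over IgG (MACS2 2.1.1.20160309) and kept those that pseudo-replicates of the library shared. The stated limit was a q-value under 0.05, but 7.24% of the deposited peaks exceed it, and all were kept. The deposited list gives, per peak, its start, end and summit, a fold enrichment (a ratio to the IgG background), the −log10 p-value and −log10 q-value, and a score that was not used here. Coordinates are printed 1-based. Groups came from the sample titles.

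The list holds no read depth. The Myb reads over each summit were solved from the fold enrichment (pseudocount 1) and the p-value, with a Myb pileup scaled by 0.769. The reads came out whole within 0.005 in 100% of rows, as they did in 1.48% after the fold had been altered, and 1.09% of rows allowed more than 1 read number, none of them around the 10 genes. The lowest IgG background, 1.46 reads, stood in 12.4% of rows. The solver was tested on simulated data. Intervals are exact Poisson for reads and Clopper-Pearson for shares. They cover counting error only, since PCR copies and neighboring peaks are not independent.

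Peaks described singly were the highest of each gene, each promoter peak and each other peak at or above the third quartile of fold enrichment. Named partners were those with a promoter peak in the highest 5% and the upstream factors. The genes, the lists and the tests were chosen with earlier results of these data known. The 8-peak, 5 kb and covered-body thresholds and the printed sequences were chosen after the values were seen. There were 14 alternatives, of which 3 were added after seeing the data. Python 3.11.15, numpy 2.4.6, pandas 2.3.3 and scipy 1.17.1 were used.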

Additional observations from a re-analysis of the deposited data

How the results depend on the processing

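All 10 genes kept a peak in their window under the alternatives run, except that Fosl1 had none at a −log10 q-value of at least 5. That limit left 35 peaks with a median of 6.97-fold (6.23 over all peaks), 14 of them wider than 2 kb (7.42% of all peaks past that limit), and promoter peaks at 8 of 10 genes (not Fosl1 or Atf3) against 24.3% of protein-coding genes. With a limit of 2 in place of 5, the last share was 37.0%. Windows of 10 kb and 100 kb held 43 and 154 peaks. Keeping only peaks whose nearest start was at 1 of the 10 genes, an alternative added after seeing the data, left 34. Such peaks were 22.1% of those in the 100 kb window and 65.7% with protein-coding starts alone. Promoter windows of 1 kb and 500 bp took 35.8% and 31.8% of protein-coding genes, and 10 and 9 of the 10 (not Fosb). The share of summits with a Myb motif was 4.48% within 25 bp (8.68% of all), 20.9% within 100 bp (30.0%), 49.3% for AACNG (54.3%) and, added after seeing the data, 61.2% anywhere in the peak (58.6%). The exact interval of this share excluded the share of the list as reported and in the 100 kb window (10.4%, 6.06 to 16.3%), and held it under the other 9 settings. Of 70 recounts of peaks at a single gene, 43 stayed within 1.5 times, 19 were lower and 8 higher. No paired analysis was possible because there was 1 library per antibody. Depth limits single peaks, since the median summit rests on 20 reads.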
